A study of Mus musculus with 9 samples.

Results

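Neurotrophin ligands, their receptors and the sorting proteins that handle them were examined in the medial prefrontal cortex (mPFC) of 9 mice. The genes were Bdnf, Ntf3, Vgf, Ntrk2, Ntrk3, Ngfr, Sort1, Sorcs1 and Sorcs3, taken by gene symbol, and all 9 were found among the 24532 genes listed for every mouse. All mice were male (by the methods) on a C57BL/6 background by the labels (C57BL/6J in the methods), an age of 11 weeks by the labels (8 weeks in the study's methods), and 3 mice formed each group. CT mice were wild type and unstressed, WT_ST mice were wild type and were restrained, and KO_ST mice lacked Fkbp5 (Fkbp5-/-) and were restrained, in both cases for 6 h a day over 21 days. WT_ST against CT therefore asks about stress in wild-type mice, and KO_ST against WT_ST about the genotype under stress. KO_ST against CT differs in genotype and stress at once, and these cannot be told apart there, since an unstressed Fkbp5-/- group was not part of the samples. By the methods all mice came from heterozygous matings, and no limit of the knockout to a cell type or a time is described.

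Neurotrophins are secreted growth factors that support the survival, growth and synaptic plasticity of neurons. BDNF acts mainly through TrkB (encoded by Ntrk2) and neurotrophin-3 through TrkC (Ntrk3), which signal through MAP kinase, PI3 kinase and phospholipase C. The unprocessed precursors bind the p75 receptor (Ngfr) together with sortilin-type receptors, and in cortex Bdnf is made largely by excitatory neurons in response to activity. FKBP5 is a co-chaperone that lowers the affinity of the glucocorticoid receptor for its hormone, and its own gene is induced by glucocorticoids.

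Each library held 43778471 to 61150128 reads on genes. Tests covered the 14370 genes with a mean of 30 or more reads. Fkbp5, the targeted gene, had a mean FPKM, a level scaled for transcript length and depth, of 7.11 ± 0.594 (SD, n = 3) in CT, 9.85 ± 0.390 in WT_ST and 4.24 ± 0.574 in KO_ST. The groups did not overlap, and the log2 fold change of KO_ST over WT_ST was -1.04 (SE 0.0866, Benjamini-Hochberg adjusted p = 0.00908 from limma). Reads on Fkbp5 in the knockout mice were thus reduced and not absent. Markers of excitatory neurons (summed FPKM of 769 to 877 over all mice) and GABA neurons were present in every mouse of this cortical tissue. Microglia markers summed to between 126 and 158 in CT, 98.6 and 112 in WT_ST and 57.5 and 114 in KO_ST. Striatal neuron markers summed to between 18.7 and 21.7 in CT, 23.0 and 31.8 in WT_ST and 18.3 and 23.1 in KO_ST.

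Bdnf (chr2:109674700-109727043, GRCm38.p6) is read from several alternative promoters that share one coding exon, and the authors' expression data list 12 transcripts for it. Ntf3 (chr6:126101412-126166772) has 3 listed transcripts. The 250 bases before the transcript starts were available from RefSeq (GRCm38.p6) for 6 of the 9 genes, in 13 windows, and Vgf, Sort1 and Ntrk3 had none. Each window was searched on both strands for a full CREB site (TGACGTCA), a CREB-like site (CACGTCA, which shares ACGTCA with the full site), an E-box (CACGTG) and a glucocorticoid receptor site (AGAACA, then any 3 bases, then TGTTCT). Shown here are the Bdnf window that holds the CREB-like site, because Bdnf is read below beside genes induced by activity, and both windows of Ntf3, the gene that passed a test between groups. Capitals mark the motif found, and each sequence runs 5′ to 3′ on the strand of the gene.
Bdnf, chr2:109692186-109692435, plus strand: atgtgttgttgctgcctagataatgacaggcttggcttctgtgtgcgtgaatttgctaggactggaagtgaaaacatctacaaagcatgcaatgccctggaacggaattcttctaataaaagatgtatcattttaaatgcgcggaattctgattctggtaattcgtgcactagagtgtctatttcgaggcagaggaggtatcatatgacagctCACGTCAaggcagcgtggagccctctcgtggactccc
Ntf3, chr6:126166745-126166994, minus strand: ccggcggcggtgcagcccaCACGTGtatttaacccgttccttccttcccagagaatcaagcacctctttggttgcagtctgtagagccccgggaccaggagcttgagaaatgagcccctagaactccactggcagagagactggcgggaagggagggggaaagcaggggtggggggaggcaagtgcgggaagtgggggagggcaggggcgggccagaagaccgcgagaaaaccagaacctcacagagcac
Ntf3, chr6:126164961-126165210, minus strand: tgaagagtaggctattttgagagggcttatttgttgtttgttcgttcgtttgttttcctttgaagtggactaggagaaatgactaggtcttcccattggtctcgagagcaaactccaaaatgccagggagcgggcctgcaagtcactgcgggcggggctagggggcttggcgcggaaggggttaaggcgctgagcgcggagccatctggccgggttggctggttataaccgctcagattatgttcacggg
The CREB-like site lay 37 to 31 bases before the Bdnf start and was found in 1.65% of all 32851 windows. The E-box lay 231 to 226 bases before the Ntf3 start and was found in 6.02% of them. The full CREB site (1.55% of windows) and the glucocorticoid receptor site (0.00913%) were in 0 of the 13 windows, which says only that these letters are not there. Read counts were given per gene, so the promoters of Bdnf cannot be told apart in the values that follow.

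The 9 genes covered a wide range of levels. On the FPKM scale, which corrects for transcript length, Sort1 was the highest, with a mean of 94.2 over the 9 mice, followed by Ntrk2 (89.0), Vgf (71.8) and Ntrk3 (31.5). Sorcs3 had a mean of 12.8, Sorcs1 10.5 and Bdnf 7.17, and Ntf3 (1.01) and Ngfr (0.260) were the lowest. Neighbours in this order kept it in all 9 mice from Vgf to Sorcs3 and from Sorcs1 to Ngfr. Sort1 was above Ntrk2 in 8 of 9 mice, Ntrk2 above Vgf in 8 and Sorcs3 above Sorcs1 in 7, so these neighbours did not separate in every mouse. The Trk receptor genes Ntrk2 and Ntrk3 thus stood far above the ligand genes Bdnf and Ntf3 in RNA, while Ngfr stood below both ligands. Ntrk2 exceeded Ntrk3 by a ratio of 2.50 to 3.16. Variation between mice was smallest for Sort1 (coefficient of variation 5.92%) and largest for Ngfr (35.1%) and Ntf3 (32.1%), the genes with the fewest reads. For 8 of the 9 genes the largest SD of the 3 groups was that of CT. The same share over all genes was not determined, so this need not be particular to these genes.

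**Figure D1:**
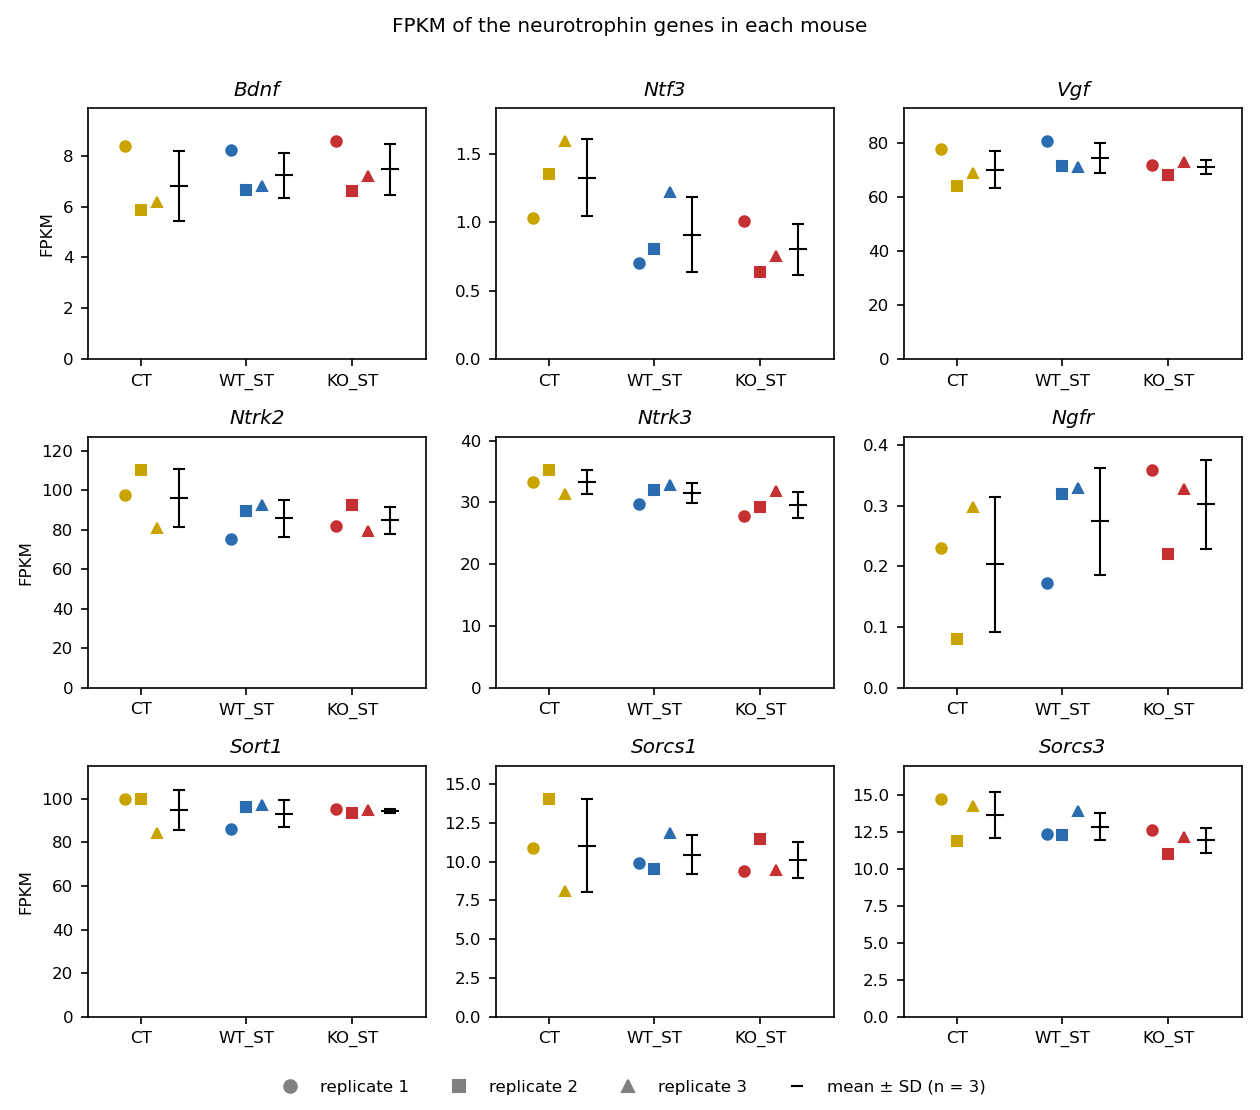
FPKM of each of the 9 genes (vertical axes, each starting at 0) in the mice of the CT, WT_ST and KO_ST groups (horizontal axes). Points are single mice, their shape gives the replicate number, and the bar beside them is the mean ± SD (n = 3). The groups overlap in every panel except that the KO_ST mice of Ntf3, at 0.640 to 1.01, lie below the CT mice, at 1.03 to 1.60.

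Of the ligands, Bdnf had FPKM values of 8.37, 5.87 and 6.18 in CT, 8.24, 6.65 and 6.80 in WT_ST, and 8.58, 6.63 and 7.22 in KO_ST. The groups overlapped almost fully, and in each of them 1 mouse stood above 8 while the others stayed lower. Differences between groups were taken from quantile-normalized log2(FPKM + 1) with limma, and a gene was called at an unadjusted p under 0.05 with a fold change above 1.2. Bdnf was not called in any comparison. Its log2 fold change was 0.10 in WT_ST against CT (95% interval -0.23 to 0.43) and 0.053 in KO_ST against WT_ST (-0.21 to 0.32). Against CT, KO_ST gave 0.15 (-0.17 to 0.48), and this result rested on CT replicate 1, the highest CT mouse. Without that mouse Bdnf passed the criterion at 0.30, with an adjusted p of 0.416 from limma.

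Ntf3, which encodes neurotrophin-3, the main ligand of TrkC, was the 1 gene of the 9 that passed a test. Its FPKM was 1.03, 1.35 and 1.60 in CT, 0.705, 0.805 and 1.22 in WT_ST, and 1.01, 0.640 and 0.755 in KO_ST. In FPKM all KO_ST mice lay below all CT mice, although by a narrow margin, and the WT_ST mice overlapped both groups. On the normalized log2 scale used for the test, KO_ST replicate 1 (1.033) was above CT replicate 1 (1.009), so these groups overlapped there. Ntf3 fell in KO_ST against CT by 0.35 on the log2(FPKM + 1) scale (SE 0.116, 95% interval -0.62 to -0.073, unadjusted p = 0.0200, Benjamini-Hochberg adjusted p = 0.499 from limma). The pseudocount of 1 compresses a gene at this level, and edgeR on the read counts gave a log2 fold change of -0.66 (adjusted p = 0.523). The adjusted p lay between 0.333 and 0.804 over all alternatives. Lower RNA in tissue can come from fewer cells of a type or from less RNA per cell, and these cannot be told apart here.

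The call of Ntf3 did not survive the loss of most single mice. Without CT replicate 2 its log2 fold change was -0.32, without CT replicate 3 -0.27, without KO_ST replicate 2 -0.28 and without KO_ST replicate 3 -0.32, and none of these passed. In WT_ST against CT it was -0.26 (95% interval -0.56 to 0.037, adjusted p = 0.663 from limma), which passed the criterion without CT replicate 1 (-0.36) or without WT_ST replicate 3 (-0.38). In KO_ST against WT_ST it was -0.083 (-0.37 to 0.21). The reads behind these values were few, at 87, 99 and 106 in CT, 48, 57 and 75 in WT_ST, and 61, 43 and 54 in KO_ST. Counting error alone gave CT replicate 1 an interval of 1.14 to 1.75 RPM (reads scaled to the total on genes) and KO_ST replicate 1 one of 1.07 to 1.79 (exact Poisson, 95%), so these mice were not separated by their counts. In KO_ST against CT, 5 of 6 microglia and 1 of 3 oligodendrocyte precursor markers were called lower (2.03% of all genes). The precursor markers had summed FPKM of 20.6 to 26.6 in CT and 16.5 to 20.2 in KO_ST. Also called lower was 1 of 6 markers of endothelium and mural cells (Cldn5). That list's summed FPKM was 58.1 to 66.4 in CT and 43.7 to 61.6 in KO_ST. In the meningeal fibroblast list 1 of 6 was called lower (Col1a2), with sums of 13.4 to 20.1 and 12.6 to 16.6. Of these 6 meningeal markers, 3 had a positive log2 fold change and 3 a negative one. Called higher (1.54% of all genes) were 1 of 9 markers of excitatory neurons (Bcl11b), 1 of 6 of GABA neurons (Pvalb) and 1 of 6 of striatal neurons (Drd2). Positive log2 fold changes were found for 6 of 9 excitatory, 6 of 6 GABA and 5 of 6 striatal neuron markers. Of the GABA neuron markers, 4 had an unadjusted p under 0.05 by limma (9.46% of all genes). The part of all these markers in the Ntf3 difference was not tested.

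**Figure D2:**
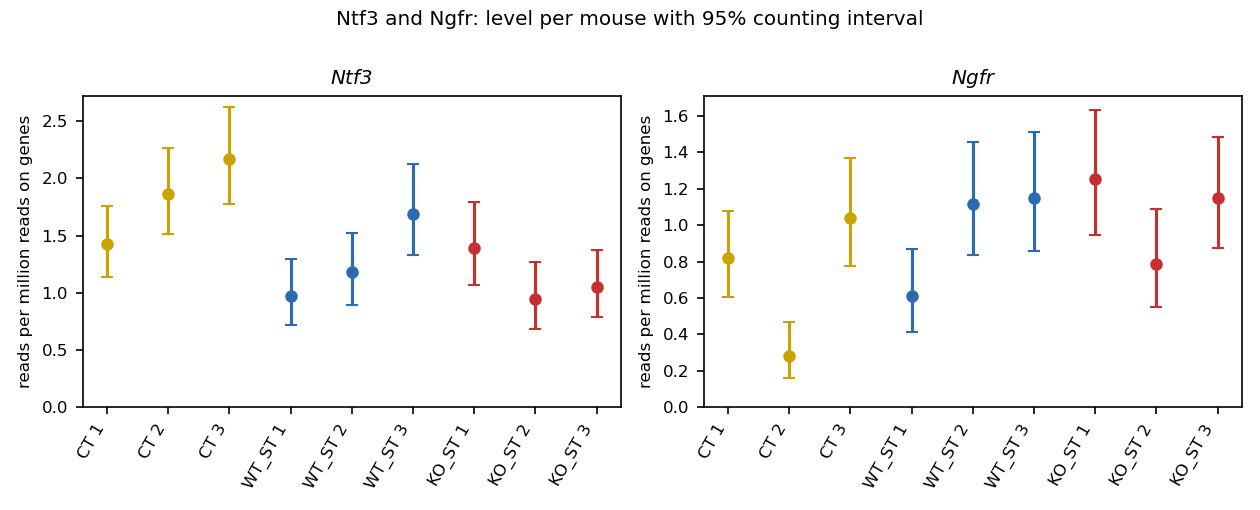
RPM, the reads scaled to the total on genes (vertical axes) for Ntf3 and Ngfr in each of the 9 mice (horizontal axes), with exact 95% Poisson intervals that cover counting error only. For Ntf3 the interval of CT replicate 1 (1.14 to 1.75) covers much of that of KO_ST replicate 1 (1.07 to 1.79), and for Ngfr CT replicate 2 lies lowest, at 0.282.

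Vgf encodes a secreted neuropeptide precursor that neurotrophins induce in neurons. Its FPKM was 77.6, 63.9 and 68.7 in CT, 80.7, 71.3 and 70.8 in WT_ST, and 71.9, 68.0 and 73.0 in KO_ST. The highest and the lowest mouse differed by a ratio of only 1.26, and the groups overlapped. Its log2 fold change was 0.078 in WT_ST against CT (95% interval -0.12 to 0.27), -0.053 in KO_ST against WT_ST (-0.17 to 0.061) and 0.024 in KO_ST against CT (-0.16 to 0.21).

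Of the receptors, Ntrk2 (chr13:58806472-59133970) had an FPKM of 97.6, 110.5 and 81.2 in CT, 75.2, 89.7 and 92.6 in WT_ST, and 82.2, 92.6 and 79.7 in KO_ST. The means of the stressed groups, 85.8 in WT_ST and 84.8 in KO_ST, were below the CT mean of 96.4, but CT replicate 3 lay among the stressed mice. Ntrk2 was not called in either comparison with CT, at log2 fold changes of -0.16 (95% interval -0.46 to 0.13) for WT_ST and -0.17 (-0.44 to 0.10) for KO_ST. These results rested on CT replicate 3, without which Ntrk2 passed the criterion at -0.28 in WT_ST (adjusted p = 0.587 from limma) and -0.29 in KO_ST (adjusted p = 0.511 from limma). Both comparisons use the same CT mice, so they are not independent. Between the stressed genotypes the log2 fold change was -0.0031 (-0.24 to 0.23).

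Ntrk2 and Ntrk3 each give rise to a full-length receptor with a kinase domain and to truncated forms without one, and in brain truncated TrkB is abundant in astrocytes. The values per gene pool these forms, and the balance between them was not measured. Summed astrocyte markers were between 499 and 540 in CT, 449 and 467 in WT_ST and 438 and 528 in KO_ST. In WT_ST against CT 2 of 6 were called lower (1.32% of all genes). Of the 6, 4 had a negative log2 fold change and 2 a positive one (Gfap at 0.21 and Aldh1l1 at 0.16). The part of these markers in the Ntrk2 values was not tested.

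Ntrk3 (chr7:78179986-78581034) was steadier, with an FPKM of 33.3, 35.3 and 31.3 in CT, 29.7, 31.9 and 32.8 in WT_ST, and 27.7, 29.3 and 31.8 in KO_ST. The KO_ST mice were mostly below the CT mice, with KO_ST replicate 3 above CT replicate 3. KO_ST differed from CT by -0.16 on the log2 scale (95% interval -0.32 to 0.011, unadjusted p = 0.0628 and adjusted p = 0.544 from limma). It was -0.081 in WT_ST against CT (-0.24 to 0.077) and -0.075 in KO_ST against WT_ST (-0.23 to 0.080), and no comparison called it.

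Ngfr, the p75 receptor that in the adult forebrain is made chiefly by cholinergic neurons projecting to the cortex, was near the limit of what these libraries hold. Its FPKM was 0.230, 0.0807 and 0.298 in CT, 0.173, 0.319 and 0.329 in WT_ST, and 0.359, 0.220 and 0.327 in KO_ST, from 15 to 59 reads per mouse. CT replicate 2 had the lowest value and the groups overlapped. The log2(FPKM + 1) differences were 0.10 in WT_ST against CT (95% interval -0.097 to 0.30), 0.038 in KO_ST against WT_ST (-0.14 to 0.22) and 0.14 in KO_ST against CT (-0.058 to 0.33). On read counts edgeR gave larger log2 fold changes of 0.43, 0.16 and 0.60, and Ngfr was not called with either tool. Markers of cholinergic neurons were also scarce, with a summed FPKM of 0.297 to 0.589 in CT, and 1 of 3 had enough reads to be tested.

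Sort1 (chr3:108283974-108361519) encodes sortilin, which sorts BDNF to the regulated secretory pathway and joins p75 in binding precursors. Its FPKM was 100.2, 99.9 and 84.1 in CT, 86.2, 96.2 and 97.3 in WT_ST, and 95.2, 93.5 and 94.9 in KO_ST. The KO_ST mice lay close together, with an SD of 0.883 against 9.16 in CT, and all within the CT range. Sort1 was not called in any comparison, at log2 fold changes of -0.024 (95% interval -0.24 to 0.19) in WT_ST against CT, 0.029 (-0.11 to 0.17) in KO_ST against WT_ST and 0.0052 (-0.17 to 0.19) in KO_ST against CT.

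Sorcs1 and Sorcs3 encode related receptors with the same Vps10p domain, found in neurons, and lie 1.34 Mb apart on chromosome 19. Sorcs1 had an FPKM of 10.9, 14.1 and 8.08 in CT, 9.92, 9.52 and 11.9 in WT_ST, and 9.38, 11.4 and 9.48 in KO_ST. Its highest and lowest values over all mice were both in CT. The log2 fold change was -0.030 in WT_ST against CT (95% interval -0.47 to 0.41), -0.032 in KO_ST against WT_ST (-0.28 to 0.21) and -0.063 in KO_ST against CT (-0.50 to 0.38). Sorcs3 had 14.7, 11.9 and 14.2 in CT, 12.3, 12.3 and 13.9 in WT_ST, and 12.6, 11.0 and 12.1 in KO_ST. The lowest Sorcs3 value was in KO_ST and the highest in CT, but the groups overlapped. Its log2 fold change was -0.057 in WT_ST against CT (-0.27 to 0.16), -0.089 in KO_ST against WT_ST (-0.25 to 0.076) and -0.15 in KO_ST against CT (-0.36 to 0.066). The ratio of Sorcs3 to Sorcs1 ran from 0.843 to 1.76 over the mice, with both ends in CT.

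Over the 9 genes, 0 were called in WT_ST against CT by limma, where 2.47% of all genes tested were called. At an unadjusted p under 0.05 the count was also 0 (7.86% of all genes), and 0 of the 9 had groups without overlap, which 6.03% of all genes had with WT_ST higher and 7.95% with WT_ST lower. Between KO_ST and WT_ST the counts were again 0, 0 and 0, where 2% of all genes were called and 5.82% had an unadjusted p under 0.05. Groups without overlap were found there for 4.29% of all genes with KO_ST higher and 6.76% with KO_ST lower. KO_ST and CT differed in 1 gene (Ntf3), where 3.56% of all genes were called, 2.03% as lower, and 9.46% had an unadjusted p under 0.05. Of all genes, 10.6% had all KO_ST mice below all CT mice in FPKM, as Ntf3 did, and 5.9% had them all above. Both edgeR and DESeq2 gave the same counts of 0, 0 and 1 called genes. The median log2 fold change of the 9 genes was -0.030, -0.032 and -0.063 in the 3 comparisons, beside 0.0034, -0.0015 and 0.0024 for all genes tested. An adjusted p under 0.05 was reached by 0.0348%, 0.153% and 0.0626% of all genes in the 3 comparisons and by none of the 9 genes with limma, edgeR, DESeq2 or any other alternative, the lowest being 0.333.

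A result that misses the criterion does not show that there was no change, and the 95% intervals give the sizes left by each test on the log2(FPKM + 1) scale. In WT_ST against CT the 95% intervals of the 9 genes ran from 1.48-fold lower to 1.35-fold higher, and in KO_ST against WT_ST from 1.297-fold lower to 1.24-fold higher. Between KO_ST and CT they ran from 1.54-fold lower to 1.39-fold higher. The pseudocount makes these limits too narrow for Ntf3 and Ngfr, for which edgeR on the read counts gave log2 fold changes of -0.66 and 0.60 in KO_ST against CT. On the log2(FPKM + 1) scale the intervals within 1.2-fold were those of 2 genes in WT_ST against CT, 6 in KO_ST against WT_ST and 2 in KO_ST against CT. The p-values set each difference against the spread between mice, with 3 in a group, which limma moderates over all genes tested.

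**Figure D3:**
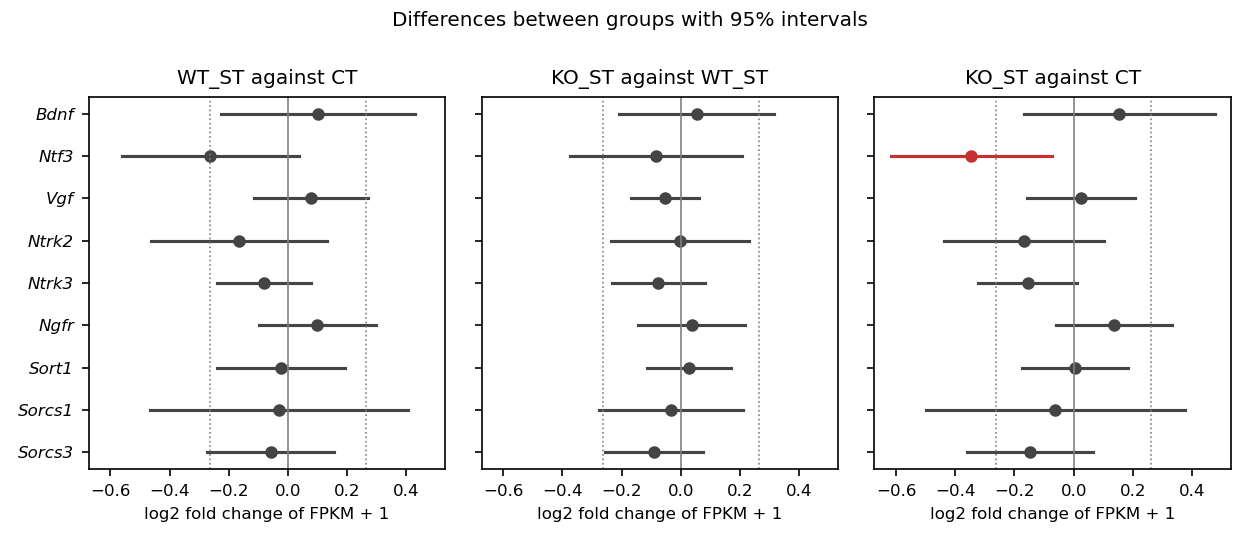
Log2 fold change of FPKM + 1 (horizontal axes) for each of the 9 genes (vertical axis) in the 3 comparisons, with 95% intervals from limma; dotted lines mark a fold change of 1.2. The interval of Ntf3 in KO_ST against CT (red, -0.62 to -0.073) is the one that does not reach 0.

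Some of the genes varied together from mouse to mouse. Bdnf and Vgf had a Pearson r of 0.82 over the 9 mice (Spearman's rho 0.65), and r was 0.95 without the 2 mice farthest from the median of Bdnf on the normalized log2 scale (KO_ST replicate 1 and WT_ST replicate 1). Ntrk2 varied with Sorcs1 (r = 0.78, rho = 0.72, r = 0.78 without 2 mice) and with Sort1 (r = 0.76, rho = 0.75, r = 0.67 without 2 mice). These were the closest pairs among the 9 genes and are given as a description, since values of one mouse share a library and its composition. The tested genes whose pattern over the 9 mice was most like that of Bdnf were Bmp4 (r = 0.94), Naa30 (0.94) and Ap5m1 (0.94). For Ntrk2 they were Rreb1 (0.96) and Plxna1 (0.96), and for Vgf they were Ogn (0.94), Serpind1 (0.94) and Cap2 (0.94). Each was picked as the highest among the correlations with all genes tested, over 9 points only.

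Among other members of the family, Ntf5, which encodes neurotrophin-4, reached an FPKM of 0.176 at most and had too few reads to be tested. The sorting receptors Sorl1 (FPKM of 23.1 to 46.0 over the 9 mice) and Sorcs2 (12.7 to 16.3) were well measured and were not called in any comparison.

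The signalling steps around the receptors were examined over 113 further genes in 8 lists, of which 109 were tested. In WT_ST against CT limma called 1. This was Hap1, a carrier of vesicles that hold pro-BDNF, with FPKM values of 47.1, 70.9 and 52.5 in CT and 43.2, 41.2 and 46.7 in WT_ST. Of all genes, 1.32% were called lower in this comparison. The groups did not overlap, and Hap1 fell by 0.35 on the log2 scale (SE 0.142, adjusted p = 0.635 from limma). It was also called in KO_ST against CT, at 42.7, 44.5 and 38.3 in KO_ST (log2 fold change -0.41, SE 0.144, adjusted p = 0.499 from limma), and the CT mice are shared. In both comparisons edgeR and DESeq2 called Pcsk6 as well, a convertase gene named after its values were seen, whose mean FPKM in CT, 5.10, compared with 4.18 for WT_ST mice and 4.01 for KO_ST mice. Without CT replicate 2, the highest mouse, the log2 fold change of Hap1 was -0.18 in WT_ST and -0.24 in KO_ST and neither passed. The call was also lost without WT_ST replicate 1 (-0.33), WT_ST replicate 2 (-0.32), KO_ST replicate 1 (-0.42) or KO_ST replicate 3 (-0.35). In WT_ST against CT 5 of 6 microglia, 2 of 6 astrocyte and 1 of 6 endothelial and mural markers were called lower (1.32% of all genes). Called higher were 3 of 6 striatal neuron markers and 1 of 9 excitatory neuron markers (1.16% of all genes). Positive log2 fold changes were found for 2 of 6 astrocyte and 2 of 6 endothelial and mural markers. The part of all these markers in the Hap1 difference was not tested.

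Of the 17 genes of the MAP kinase branch, limma called 1 in KO_ST against WT_ST, where 1.05% of all genes were called lower, and 2 in KO_ST against CT, where 2.03% were, all of them lower. Both edgeR and DESeq2 called 2 in each, with Rps6ka5 (mean FPKM of 3.39 in WT_ST and 2.79 in KO_ST, named after its values were seen) as the added gene in KO_ST against WT_ST. Rps6ka2, which encodes a ribosomal S6 kinase downstream of ERK, had an FPKM of 24.5, 24.2 and 23.4 in CT, 21.6, 22.2 and 23.6 in WT_ST, and 13.3, 14.6 and 14.3 in KO_ST. All knockout mice lay far below all others. It differed by -0.62 on the log2 scale between KO_ST and WT_ST (SE 0.0590, adjusted p = 0.0161 from limma) and -0.72 in KO_ST against CT (SE 0.0562, adjusted p = 0.0104 from limma). With limma it was the 1 gene of the 109 with an adjusted p under 0.05 in these comparisons (DESeq2 also gave Dusp1 one between the stressed genotypes), and it passed the criterion of p and fold change under every alternative. Its adjusted p did not stay under 0.05 in all of them, with a highest value of 0.280 against WT_ST and 0.181 against CT, both from the unmoderated test. Without WT_ST replicate 2 (0.0894) or KO_ST replicate 3 (0.0589) the limma adjusted p was above 0.05 against WT_ST, as it did against CT without CT replicate 1 (0.0606) or CT replicate 2 (0.0631). Rps6ka2 (chr17:7088971-7303315) lies 21.1 Mb from Fkbp5 on chromosome 17. The knockout line was backcrossed for 10 generations, and DNA carried along beside the targeted gene and the loss of Fkbp5 itself cannot be told apart here. Mapk3, which encodes ERK1, had 100.5, 118.4 and 104.1 in CT, 96.7, 89.6 and 102.9 in WT_ST, and 87.7, 88.9 and 83.7 in KO_ST. It fell in KO_ST against CT by 0.30 (SE 0.0659, adjusted p = 0.443 from limma), with no overlap, and without CT replicate 2 it was not called (-0.23).

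In the p75 receptor branch limma called 1 of 15 genes, lower in KO_ST against CT, where 2.03% of all genes were called lower. This was Irak1, a kinase that links receptors to NF-kB, whose log2 fold change was -0.30 (adjusted p = 0.523 from limma) with overlapping groups. It was not called without CT replicate 2 (-0.27), CT replicate 3 (-0.21), KO_ST replicate 1 (-0.22) or KO_ST replicate 3 (-0.30). No gene was called among the 20 adaptors of Trk receptors, the 11 genes of the PI3 kinase branch and the 16 transcription factors and cofactors of the Bdnf gene, by limma, edgeR or DESeq2 in any comparison. At an unadjusted p under 0.05 without the fold criterion, which 7.86%, 5.82% and 9.46% of all genes met in the 3 comparisons, these lists held 2, 0 and 1 genes in WT_ST against CT, 0, 0 and 1 in KO_ST against WT_ST, and 1, 0 and 1 in KO_ST against CT.

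**Figure D4:**
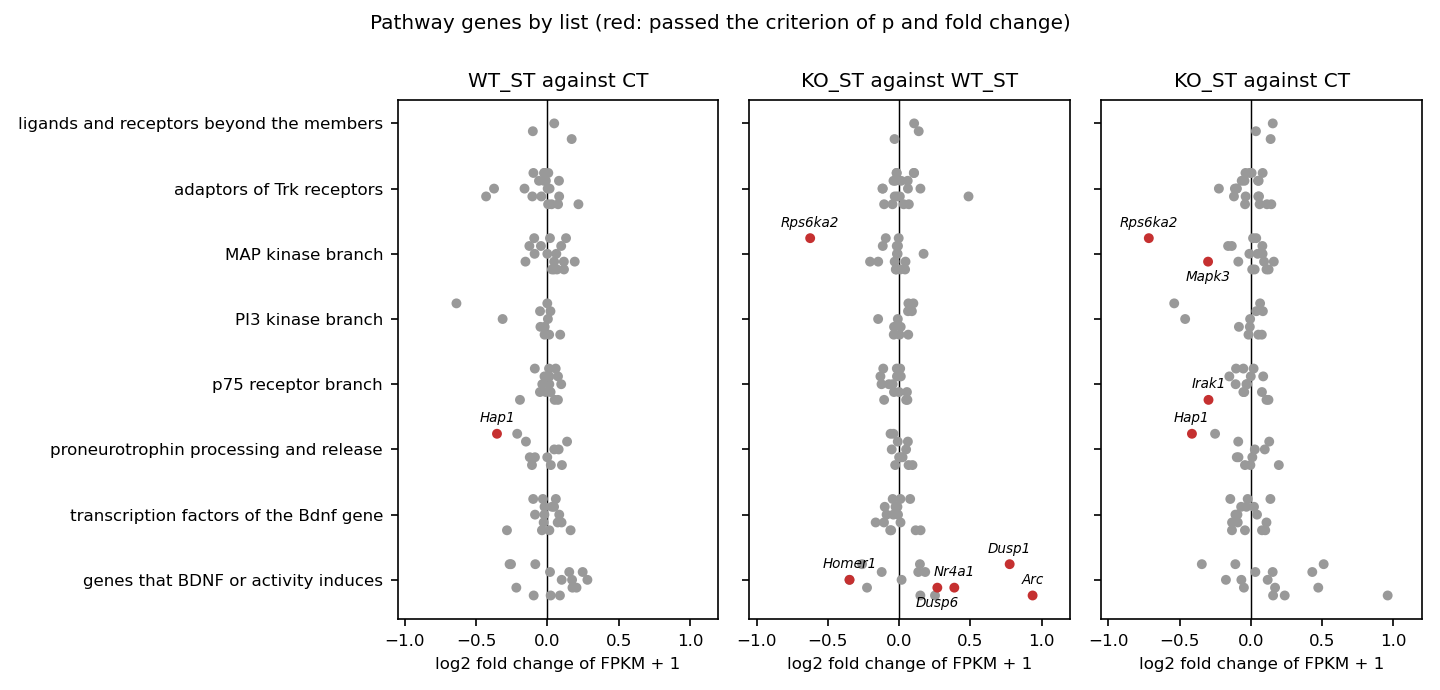
Log2 fold change of FPKM + 1 (horizontal axes) of 109 pathway genes, each a point, in 8 lists (vertical axis) and the 3 comparisons. Red points with names passed the criterion of p and fold change: 1 in WT_ST against CT, 6 in KO_ST against WT_ST and 4 in KO_ST against CT.

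Genes that BDNF or neuronal activity induces were the list with the most calls between the stressed genotypes. Of 15 tested in KO_ST against WT_ST, limma called 4 higher and 1 lower, where 0.946% of all genes were called higher and 1.05% lower. The same 5 genes were called by edgeR, and DESeq2 called 7, adding Egr2 (mean FPKM of 1.31 in WT_ST and 0.813 in KO_ST) and Fosb (2.83 and 2.17), which were lower in KO_ST and are named after their values were seen. The median log2 fold change of the list was 0.15 with limma, beside -0.0015 for all genes. Arc, a synaptic protein made in response to activity, had an FPKM of 18.7, 18.1 and 15.1 in WT_ST and 23.0, 51.7 and 31.6 in KO_ST (log2 fold change 0.94, SE 0.263, adjusted p = 0.701 from limma). Dusp1, a phosphatase that switches off MAP kinases, had 7.62, 6.10 and 8.17 in WT_ST and 10.6, 18.0 and 11.6 in KO_ST (0.78, SE 0.190, adjusted p = 0.642 from limma). Both sets of knockout mice lay above the WT_ST mice. The transcription factor gene Nr4a1 (0.39) and the ERK phosphatase gene Dusp6 (0.27) were also called higher, without overlap. Homer1, a scaffold of glutamate receptors, was called lower, with 28.8, 28.7 and 25.7 in WT_ST and 25.5, 17.9 and 21.5 in KO_ST (-0.35, SE 0.114, adjusted p = 0.801 from limma). It also has a short form induced by activity, which the values per gene do not separate.

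None of these 5 genes had an adjusted p under 0.05 by limma or edgeR, and with DESeq2 Dusp1 did (0.00116, in a range of 0.00116 to 0.997 over all alternatives). KO_ST replicate 2 had the highest value of all 9 mice for 5 of the 15 genes. Without it Nr4a1 (0.24), Dusp6 (0.21) and Homer1 (-0.23) were not called, and each also lost its call without 1 WT_ST mouse (replicate 1 for Nr4a1, at 0.34, replicate 3 for Dusp6, at 0.17, and replicate 2 for Homer1, at -0.32). The fit over all 9 mice did not call these 3 genes, and the unmoderated test called Dusp1 alone of the 5. In KO_ST against WT_ST 2 of 6 striatal neuron markers and 1 of 6 microglia markers were called lower (1.05% of all genes). Their part in these values was not tested. In the comparisons with CT 0 of the 15 genes were called by limma (2.47% of all genes for WT_ST and 3.56% for KO_ST). At an unadjusted p under 0.05 there was 1 for WT_ST and 0 for KO_ST (7.86% and 9.46% of all genes), and edgeR and DESeq2 called 0 for WT_ST and 1 (Fosb, named after its values were seen) for KO_ST. The CT mice were spread widely here, with Arc at 34.9, 10.02 and 13.8. CT replicate 1 was the highest CT mouse for 13 of the 15 genes, and CT replicate 2 the lowest of all 9 mice for 8.

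Bdnf, itself a gene of this kind, was not called between the stressed genotypes, and whether it differed from the list was not tested, its interval (-0.21 to 0.32) holding the list's median. KO_ST replicate 2, the mouse with the highest Arc, had the lowest Bdnf of the KO_ST mice (6.63). Within CT, replicate 1 was highest for Bdnf and for Vgf as well as for most of the induced genes. Over the 9 mice the correlation of Bdnf with the 15 genes had a median r of 0.47 (-0.084 to 0.81), positive for 14 of them, and without the 2 mice farthest from the Bdnf median it was 0.61, again positive for 14. For Vgf the median r was 0.42 (-0.37 to 0.87), positive for 14, but without the 2 mice farthest from the Vgf median (CT replicates 1 and 2) it was 0.25, positive for 8, so this relation rested largely on those mice. These correlations are a description over 9 mice that share their libraries with every gene compared.

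**Figure D5:**
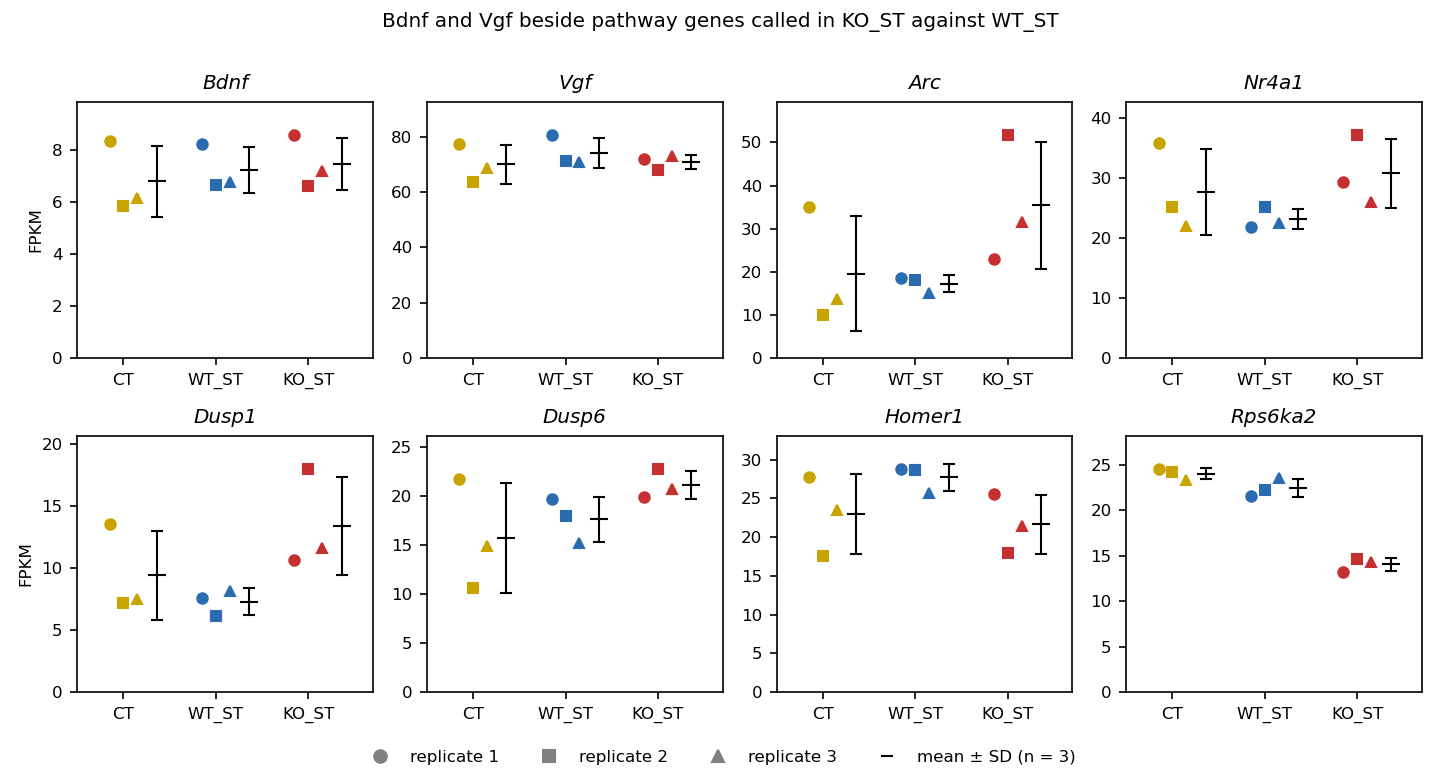
FPKM (vertical axes, each starting at 0) of Bdnf, Vgf and the 6 pathway genes called in KO_ST against WT_ST, by group (horizontal axes). Points are single mice and bars the mean ± SD (n = 3); Bdnf and Vgf overlap between all groups, while Arc lies at 15.1 to 18.7 in WT_ST and 23.0 to 51.7 in KO_ST, and Rps6ka2 at 13.3 to 14.6 in KO_ST against 21.6 to 23.6 in WT_ST.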

How the data were processed

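RNA from the mPFC of 9 mice was sequenced, with one library per mouse. Per the labels and the submitters' processing notes, HISAT2 2.1.0, Bowtie2 2.3.4.1 and StringTie 1.3.4d were used with GRCm38. The authors deposited 2 values per gene and mouse, an unnormalized read count and an FPKM, which corrects for transcript length and depth. A stranded kit was used according to the methods. How reads were assigned to genes, and whether the counting used strand, is not given in the sources used here. Ntrk2, Ntrk3 and Sorcs1 overlap predicted genes (Gm53063, Gm39038 and Gm26629), whose reads may not be separated from theirs.

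Here log2(FPKM + 1) was quantile normalized across the 9 mice. Genes averaging at least 30 reads were tested with limma 3.58.1 (moderated, with a trend; R 4.3.3) on the mice of the 2 groups compared, and p-values were adjusted by Benjamini-Hochberg over all 14370 genes tested. A call needed a fold change above 1.2 and an unadjusted p under 0.05. Depth is given in the text, and libraries of one group differed by far more than sampling noise (chi-square per degree of freedom at least 18.7).

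Alternatives were other pseudocounts, no quantile normalization, other filters, an unmoderated test, tests of the counts with edgeR 4.0.16 and with DESeq2 1.42.0, a fit over all 9 mice, a replicate block and leaving out each mouse. The methods were tested on simulated data. The 9 genes and the gene lists were chosen with earlier results of these data known. Genes named are Fkbp5, the 9 genes, every pathway gene called, and the 3 genes most correlated with each of Bdnf, Ntrk2 and Vgf. Ntf5, Sorl1 and Sorcs2 were named as further family members, and single marker genes after their values were seen. Some genes that these rules select are not reported here. Plots used matplotlib 3.10.9 (Python 3.11.15).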

Additional observations from a re-analysis of the deposited data

How the results depend on the processing

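Over 27 differences of the 9 genes and 450 values under alternatives, 416 kept their direction and their side of the criterion, 5 lost the call, 5 gained it and 24 changed sign, the largest of the latter being 0.154 in size. Apart from leaving out mice, the sign changed only for Sorcs1 in KO_ST against WT_ST, to 0.041 with edgeR and 0.045 with DESeq2. With each mouse left out in turn, log2 fold changes in WT_ST against CT ran from -0.11 to 0.049 for Sort1, -0.23 to 0.15 for Sorcs1 and -0.15 to 0.0034 for Sorcs3. In KO_ST against WT_ST they ran from -0.034 to 0.15 for Bdnf, -0.17 to 0.031 for Ntf3, -0.11 to 0.059 for Ntrk2, -0.018 to 0.086 for Ngfr, -0.043 to 0.068 for Sort1 and -0.12 to 0.052 for Sorcs1. In KO_ST against CT they ran from -0.041 to 0.11 for Vgf, -0.083 to 0.058 for Sort1 and -0.26 to 0.12 for Sorcs1.

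The number of the 9 genes called was 0 in WT_ST against CT, and 0 to 1 with a mouse left out (1 without CT replicate 1, CT replicate 3 or WT_ST replicate 3). In KO_ST against CT it was 1, and 0 to 2 with a mouse left out (2 without CT replicate 1, 0 without CT replicate 2, KO_ST replicate 2 or KO_ST replicate 3). It was 0 with the unmoderated test and 0 with a mean FPKM of at least 5, which leaves Ntf3 untested. Of the pathway genes, 1 was called in WT_ST against CT, 0 without a filter, 0 with the unmoderated test, 2 with edgeR and 2 with DESeq2, and 0 to 8 with a mouse left out (8 without CT replicate 1, 3 without WT_ST replicate 3, 2 without CT replicate 3 or WT_ST replicate 1, 0 without CT replicate 2 or WT_ST replicate 2). In KO_ST against WT_ST 6 were called, 2 with the unmoderated test, 3 with all 9 mice in one fit, 7 with edgeR, 9 with DESeq2 and 4 to 8 with a mouse left out. In KO_ST against CT 4 were called, 2 with the unmoderated test, 6 with edgeR, 6 with DESeq2 and 1 to 10 with a mouse left out (10 without CT replicate 1, 1 without CT replicate 2, 2 without KO_ST replicate 1 or KO_ST replicate 3). The causes were not tested.

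Over all genes 355 were called in WT_ST against CT, 46.8% of them higher. Other pseudocounts gave 544 and 557, a mean FPKM of at least 5 gave 174, the unmoderated test 164, edgeR 535, DESeq2 552 and leaving out CT replicate 3 gave 542. The share called higher was 34.1% without quantile normalization, 33.1% with edgeR and 34.2% with DESeq2. In KO_ST against WT_ST 287 were called, with 445 and 452 under other pseudocounts, 118 with a mean FPKM of at least 5, 138 with the unmoderated test and 477 without KO_ST replicate 3. In KO_ST against CT 512 were called, 43.2% of them higher, with 248 under a mean FPKM of at least 5 and 248 with the unmoderated test, and 28.5% were higher without quantile normalization. With group means removed, mice with the same replicate number had a mean r of -0.010 over 9 pairs of mice (-0.26 to 0.23). Mice with different numbers had 0.0049 over 18 pairs (-0.27 to 0.19). The labels do not say what the number stands for, and so few pairs cannot show whether it pairs the mice. With a replicate block the 9 genes gave the same 0, 0 and 1 calls, the pathway genes 1, 7 and 4, and all genes 399, 279 and 562. Depth limits Ntf3 and Ngfr, with 43 to 106 and 15 to 59 reads per mouse.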
